A study of Mus musculus with 20 samples.

Results

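The circadian clock genes described here are the activators Arntl (also known as Bmal1) and Clock, the repressors Per1, Per2, Per3, Cry1 and Cry2, the nuclear receptors Nr1d1 and Nr1d2 (REV-ERB alpha and beta) and the output factor Dbp. They were taken by symbol from the gene table of single-cell RNA-seq libraries of mouse interscapular brown adipose tissue (iBAT), and all 10 were found among its 31053 genes. The libraries hold stromal and immune cells, which were sorted with magnetic beads into a lineage-positive (Lin+) and a lineage-negative (Lin-) fraction. Each of 10 experiments gave 1 library per fraction. Male C57 mice were kept at 24 °C (RT), housed at 6 °C for 4 days (COLD) or infused at 24 °C for 4 days with CL316,243 (CL, a β3-adrenergic agonist, 0.75 nmol per hour), with 2 experiments in each group. The other 4 experiments came from female mice of an Adrb1 line, namely 1 of WT mice and 1 of KO mice at RT, and 1 of each genotype kept in the cold for 4 days. All mice of this line had floxed Adrb1 alleles and were given tamoxifen. The KO mice also had 1 copy of Pdgfra-CreER, a tamoxifen-activated recombinase driven from the Pdgfra gene of stromal cells, which the WT mice lacked. Each library pooled 3 to 4 mice aged 8 to 14 weeks, kept under 12 h of light and 12 h of dark, so the pool is the unit of replication. The cold-exposed mice were caged singly. The hour of harvest is not given in the sources used here, and each library is a single time point of its mice.

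The circadian clock is a feedback loop of transcription that runs in nearly every cell. ARNTL and CLOCK bind E-boxes as a pair and activate the Per, Cry and Nr1d genes and Dbp. PER and CRY proteins then block that pair, and the NR1D receptors repress Arntl, so that Arntl and the Nr1d genes peak at opposite times of day. DBP activates genes through D-boxes, the Per genes among them, and Per1 is also induced acutely through cAMP response elements. In brown fat, NR1D1 is known as a repressor of Ucp1, the gene of heat production, and ties it to the time of day.

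Levels are given as CPM, which are the counts of a gene scaled to a fixed total of UMIs over all cells of a class in a library, and are compared for the same gene between classes or experiments, not between genes. Of 13 classes named from marker genes, 6 were in the Lin- fraction and 7 in the Lin+ fraction. The Lin- classes were ASC1-, ASC2- and ASC3-like (adipose stromal cells), VEC-like (vascular endothelial), VSMC-like (vascular smooth muscle) and Schwann-like. The Lin+ classes were macrophage-, monocyte-, dendritic-, neutrophil-, B-, T- and NK-like. After filtering, the libraries held between 7.857 and 41.98 times 1000000 UMIs, and 89020 of the 126274 cells fell into a named class. The lowest total was that of the Lin- library of RT replicate 2, in which 72.0% of barcodes had at least 10% mitochondrial UMIs and 28.0% were kept. The 2 libraries of CL replicate 2 shared 1098 cell barcodes, 17.1% of the smaller library, and no other pair shared more than 2.04%. With these shared barcodes left out, an alternative chosen after seeing the data, the calls among the clock genes given below stayed at 11 for COLD against RT, 0 for CL against RT, 1 for COLD against CL and 0 for the replicates, and became 42 instead of 43 for cold in the Adrb1 line and 5 instead of 4 for the difference between classes.

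The windows searched upstream of the clock genes differed in which elements of the loop they matched. Those of Per1, Per3, Cry1 and Nr1d1 are shown because they hold matched elements and these genes gave calls in C57 mice below. The sequences run up to 250 bases upstream of the annotated start (RefSeq, build GRCm38.p6), 5′ to 3′ on the gene's strand, with matched elements in capitals. The Per1 window is chr11:69098699-69098947 (plus strand), that of Per3 is chr4:151044666-151044915 (minus), that of Cry1 is chr10:85185065-85185304 (minus) and that of Nr1d1 is chr11:98775378-98775627 (minus). No printed base lies in an exon of the GENCODE annotation, and exons of RefSeq were not checked. The Per1 window lies within the annotated span of the gene (chr11:69095108-69109965), before one of its later starts, and that of Per3 lies partly within its span (chr4:150997018-151044707). Bases within these spans may thus lie in a RefSeq exon.
Per1: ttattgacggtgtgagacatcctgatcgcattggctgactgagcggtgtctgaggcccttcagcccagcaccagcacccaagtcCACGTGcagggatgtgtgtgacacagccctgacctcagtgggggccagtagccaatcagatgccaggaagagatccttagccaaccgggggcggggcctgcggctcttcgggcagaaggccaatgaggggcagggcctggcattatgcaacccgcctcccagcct
Per3: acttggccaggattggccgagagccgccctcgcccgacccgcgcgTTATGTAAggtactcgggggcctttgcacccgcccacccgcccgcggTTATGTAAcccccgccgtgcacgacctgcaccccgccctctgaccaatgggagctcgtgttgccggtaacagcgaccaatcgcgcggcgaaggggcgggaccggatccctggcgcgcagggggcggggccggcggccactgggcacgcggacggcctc
Cry1: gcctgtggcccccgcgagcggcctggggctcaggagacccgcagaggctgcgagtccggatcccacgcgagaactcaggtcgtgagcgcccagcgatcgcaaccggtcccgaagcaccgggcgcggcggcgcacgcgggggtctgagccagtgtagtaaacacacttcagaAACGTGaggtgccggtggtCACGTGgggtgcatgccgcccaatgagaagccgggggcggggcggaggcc
Nr1d1: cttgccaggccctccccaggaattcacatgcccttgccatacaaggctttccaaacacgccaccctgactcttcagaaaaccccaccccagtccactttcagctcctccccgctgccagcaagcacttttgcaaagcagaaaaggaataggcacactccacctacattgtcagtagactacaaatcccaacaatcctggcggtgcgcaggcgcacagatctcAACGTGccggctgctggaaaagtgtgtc
Both strands were searched for the E-box CACGTG, the E-prime box CACGTT, the D-box TTANGTAA, the REV-ERB and ROR element TAGGTCA and the cAMP response element TGACGTCA. Per1 held an E-box 166 to 161 bases upstream of the start. Cry1 held an E-box 60 to 55 bases upstream and an E-prime box 79 to 74 bases upstream, and Nr1d1 an E-prime box 28 to 23 bases upstream. Per3 held 2 D-boxes, and Cry2 held an E-prime box 166 to 161 bases upstream. No match lay in these windows of Arntl, Clock, Nr1d2 or Dbp, and 9 of the 10 genes had an entry. Of 32851 annotated mouse promoters, 6.02% held the E-box, 3.85% the E-prime box, 2.06% the D-box, 2.23% the REV-ERB and ROR element and 1.55% the cAMP response element. A match describes the letters and not binding. A search of 250 bases for exact letters cannot show that a promoter lacks an element.

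The nuclear receptors, Dbp and Per3 were higher in stromal and vascular classes than in immune classes. In the 6 C57 experiments, Nr1d1 averaged 67.9 CPM ± 30.1 (SD, n = 6) in the lowest Lin- class (Schwann-like) and 10.6 ± 6.50 in the highest Lin+ class (macrophage-like), and the ranges of these neighbours did not overlap. The same held for Nr1d2, with 33.95 ± 3.91 in ASC1-like and 18.8 ± 6.01 in macrophage-like cells, for Dbp, with 69.4 ± 9.22 and 33.7 ± 6.17 in the same classes, and for Per3, with 25.6 ± 4.53 and 5.72 ± 2.55. The median over the Lin- classes was above that over the Lin+ classes in 10 of 10 experiments for Clock, Per2, Per3, Cry2, Nr1d1, Nr1d2 and Dbp, and in 8 of 10 for Arntl. Per1 and Cry1 ran the other way, with the Lin- median higher in 1 of 10 experiments each. These levels come from separate libraries of the same mice and were not tested.

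VSMC-like cells ranked first for 6 of the genes. They held Dbp at 274.7 CPM ± 70.1, Nr1d1 at 110.6 ± 42.3, Nr1d2 at 87.3 ± 15.3, Cry2 at 83.4 ± 17.6, Clock at 69.6 ± 27.1 and Per2 at 18.9 ± 7.70. Their Arntl, in contrast, was 6.85 ± 1.75, rank 11 of 13, against 27.3 ± 9.21 in ASC2-like cells. The VSMC-like class joins cluster 22 (leading genes Myh11, Acta2 and Tagln) and cluster 13 (Kcnj8, Rgs5 and Abcc9), each of 1916 cells. Of 7 smooth muscle markers, 6 were raised in cluster 22 and 4 in cluster 13. Cluster 13 held 68.2% and 63.9% of the class at RT and 43.2% and 49.8% in COLD. These levels thus cannot be credited to smooth muscle cells alone, and no values within its clusters are given. Arntl was not detected in 4 of the 6 neutrophil-like sums, a class of 23 to 372 cells per library. Per1 was highest in neutrophil-like cells (107.8 ± 44.1) and lowest in ASC1-like cells (17.6 ± 3.24), and Cry1 was highest in VEC-like cells (23.8 ± 9.67) and lowest in macrophage-like cells (4.13 ± 2.39). Within a fraction neighbours in these orders overlapped in range, except that Dbp in macrophage-like cells lay above T-like cells and that Per3 was at 0 in all 6 neutrophil-like sums. The plot of levels by experiment shows the 3 classes on which the comparisons below turn.

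**Figure D1:**
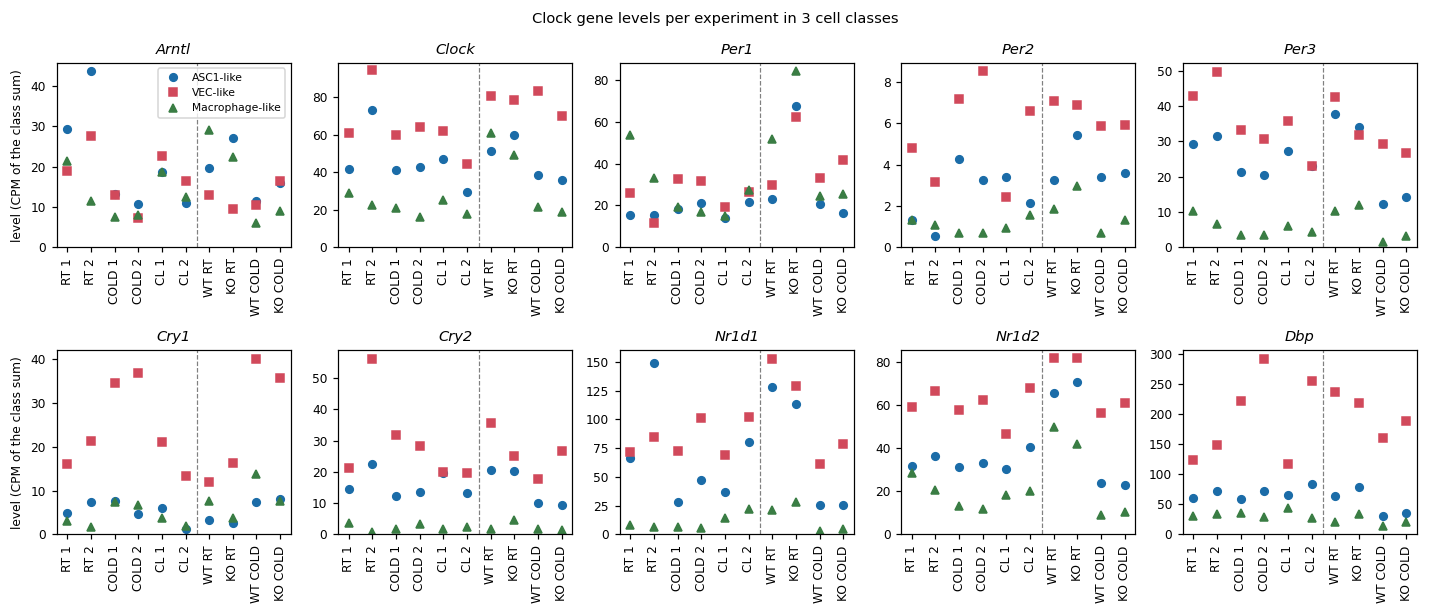
Level of each clock gene (CPM, linear axis from 0, with its own range for each gene) in ASC1-, VEC- and macrophage-like cells, with 1 point per experiment and class and the C57 experiments left of the dashed line and the Adrb1 line right of it. Nr1d1, Nr1d2, Per3 and Dbp lie lower in macrophage-like cells than in the other 2 classes in the C57 experiments, and Arntl in ASC1-like cells falls from 29.2 and 43.8 CPM at RT to 13.3 and 10.8 in COLD.

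In mice after 4 days of cold, Arntl was lower in ASC1-like stromal cells and macrophage-like cells, and Per1 was lower in macrophage-, monocyte-, dendritic- and NK-like cells. Summed counts were fitted class by class with edgeR's quasi-likelihood test over the 6 C57 experiments, with Benjamini-Hochberg adjustment of the p-values across the genes tested in a class. Of 130 pairs of gene and class, 87 passed the filter on low counts. Of these, 11 passed an adjusted p of 0.05 for COLD against RT, 9 lower and 2 higher, in 6 of the 10 genes, whereas 31 had an unadjusted p under 0.05. Over all genes and classes tested, 8.11% passed, 3.97% lower and 4.14% higher, and in macrophage-like cells alone 34.3% did, which is the background for the counts below. The map of fold changes shows where the calls fell. The count depended on single libraries. With COLD replicate 1 or RT replicate 1 left out 1 call passed, with COLD replicate 2 left out 2, and with RT replicate 2 left out 9.

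Arntl in ASC1-like cells, the stromal cells named from Cxcl14 and Smoc2, was the call that passed throughout. It was 29.2 and 43.8 CPM in the RT experiments, 13.3 and 10.8 in COLD and 18.8 and 10.9 in CL. Both COLD values lay below both RT values, and so did both CL values. The log2 fold change for COLD against RT was -1.43 (SE 0.20, adjusted p = 0.00372), and it passed in 12 of 12 alternatives, with an adjusted p from 2.5e-09 to 0.0346. In these cells 12.6% of all genes passed. In the other Lin- classes Arntl was lower in COLD too: both COLD values lay under both RT values in 6 of 6 classes, among them ASC2-like cells (25.6 and 45.2 at RT, 23.0 and 19.1 in COLD) and VEC-like cells (18.8 and 27.6 at RT, 13.02 and 7.21 in COLD). Of the other 5 classes 3 were above the count filter and none of these passed the adjusted threshold (log2 fold change -0.62 and adjusted p = 0.268 in ASC2-like, -0.94 and 0.622 in ASC3-like, and -1.13 and 0.338 in VEC-like cells). Of all genes in all classes, 20.3% had COLD values wholly below RT, which is a share of single pairs of gene and class. The 6 Lin- classes come from the same libraries and are not independent. The share of genes lower in all of them was not computed. The same limits hold for the counts of classes in COLD and CL below.

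Macrophage-like cells held 5 of the calls. Arntl was 21.4 and 11.6 CPM at RT and 7.57 and 7.92 in COLD (log2 fold change -1.02, SE 0.31, adjusted p = 0.0297). Cry1, a repressor of the loop, was 3.13 and 1.81 at RT and 7.40 and 6.72 in COLD (1.60, SE 0.42, adjusted p = 0.0174), and the RT values rest on 7 and 5 counts. The COLD values of Arntl were all below, and those of Cry1 all above, those of RT.

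Per1 in the same cells fell from 53.6 and 32.9 CPM at RT to 19.3 and 16.8 in COLD (log2 fold change -1.20, SE 0.34, adjusted p = 0.0240). Nr1d2 fell from 28.6 and 20.6 to 13.2 and 11.9 (-0.91, SE 0.24, adjusted p = 0.0161), and Per3 from 10.3 and 6.51 to 3.44 and 3.60 (-1.18, SE 0.34, adjusted p = 0.0247). The groups did not overlap in any of these 5 genes, but in this class 38.4% of all genes lay wholly lower and 34.9% wholly higher in COLD. Nr1d1 (8.49 and 6.51 at RT, 6.20 and 6.00 in COLD) and Dbp (30.8 and 34.3 at RT, 35.3 and 28.9 in COLD) did not pass. Without RT replicate 1 the 5 calls no longer passed, with adjusted p-values of 0.0527 (Cry1) to 0.270 (Arntl), and with either COLD replicate left out none passed either. The log2 fold change of Arntl without RT replicate 1 was -0.53.

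Per1, the PER gene that is also induced acutely, was lower in COLD across the immune cells. Both COLD values lay below both RT values in 6 of the 7 Lin+ classes. The exception was the neutrophil-like class, where COLD replicate 2 lay within the RT range. The COLD replicate 1 sum of that class rests on 1 count and, at 42.8 CPM, was the lowest of its 6 C57 values. Of all genes in a Lin+ class, from 9.41% (T-like) to 38.4% (macrophage-like) lay wholly lower in COLD. The change passed in 4 of them. Beside macrophages these were dendritic-like cells (56.9 and 36.6 CPM at RT, 22.2 and 26.1 in COLD, log2 fold change -1.22, SE 0.26, adjusted p = 0.0205), monocyte-like cells (69.9 and 47.9, then 26.3 and 31.8, -1.06, SE 0.28, adjusted p = 0.0235) and NK-like cells (74.8 and 59.3, then 19.5 and 30.1, -1.57, SE 0.35, adjusted p = 0.0355). In these classes 8.24%, 26.6% and 2.75% of all genes passed. T-like cells gave a similar value that did not pass (84.8 and 46.1 at RT, 35.3 and 24.4 in COLD, -1.42, adjusted p = 0.164). RT replicate 1 was the highest of the C57 libraries for Per1 in each of the 7 Lin+ classes. Without it the calls in macrophage-, dendritic-, monocyte- and NK-like cells did not hold, with log2 fold changes of -0.81, -0.77, -0.72 and -1.38. Without COLD replicate 1 they did not hold either (-1.28, -1.07, -0.93 and -1.26 in the same order). Without COLD replicate 2 those in macrophage-, monocyte- and NK-like cells did not (-1.12, -1.17 and -1.86). The call in NK-like cells did not pass in DESeq2 (adjusted p = 0.167) or hold without RT replicate 2 (log2 fold change -1.83). In Lin- cells Per1 gave no call. ASC1-like cells had 15.3 and 15.3 CPM at RT and 18.1 and 21.1 in COLD, with both COLD values above RT also in ASC2- and VEC-like cells, whereas VSMC-like cells had 49.9 and 53.2 at RT and 38.5 and 45.2 in COLD.

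Dbp in monocyte-like cells rose from 6.26 and 7.18 CPM at RT to 14.6 and 15.5 in COLD (log2 fold change 1.12, SE 0.31, adjusted p = 0.0277), and Nr1d2 there fell from 20.4 and 18.7 to 8.80 and 12.2 (-0.95, SE 0.27, adjusted p = 0.0292). Neither passed in DESeq2 (adjusted p = 0.0914 and 0.0833) or with any of the RT or COLD libraries left out. Dbp was above RT in 9 of the 10 classes in which it was tested, with a median log2 fold change of 0.25, and both COLD values lay above both RT values in 5 of 13 classes, against 25.4% of all genes and classes. In VEC-like cells it was 124.7 and 149.4 at RT and 222.0 and 292.9 in COLD (0.95, adjusted p = 0.476).

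The remaining genes gave no call. Nr1d1 in ASC1-like cells was 66.3 and 148.8 CPM at RT and 28.6 and 47.2 in COLD (log2 fold change -1.23, SE 0.42, adjusted p = 0.0876), and with the experiment number as a block it passed (adjusted p = 0.00342). Per2 in ASC1-like cells was 1.35 and 0.528 CPM at RT and 4.27 and 3.26 in COLD (1.72, SE 0.54, adjusted p = 0.0703), passed with the block (adjusted p = 0.0419), and rests on 9 and 1 counts at RT. Per2 passed the count filter of the C57 fits in 3 classes only. Cry1 in VEC-like cells was 16.0 and 21.2 at RT, 34.5 and 36.7 in COLD and 21.0 and 13.2 in CL, with COLD above RT and CL (COLD against RT 0.98, SE 0.26, adjusted p = 0.292). In that class 0.195% of all genes passed. Clock, the partner of ARNTL, had a median log2 fold change of -0.21 over 12 classes, from -1.34 to 0.20. Its lowest value was in Schwann-like cells (112.3 and 100.5 CPM at RT, 41.3 and 43.8 in COLD, adjusted p = 0.143), where the groups did not overlap. The median of Cry2 over 8 classes was -0.25.

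**Figure D2:**
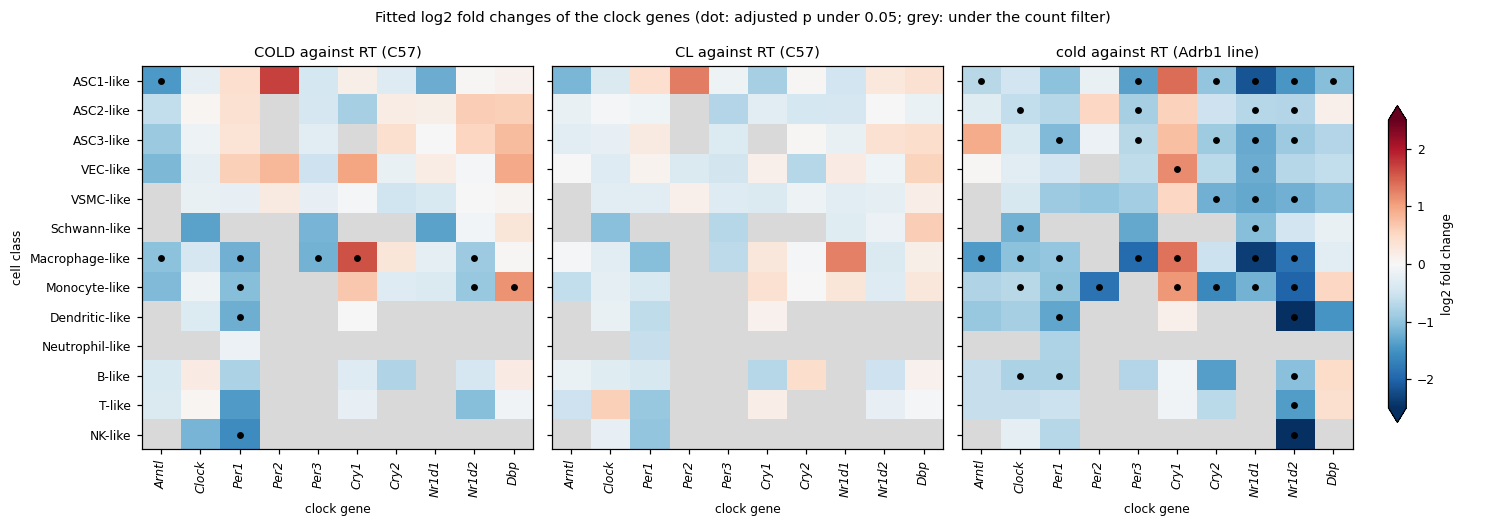
Fitted log2 fold changes of the clock genes (columns) in each class (rows) for COLD against RT, CL against RT and cold against RT in the Adrb1 line, with blue lower and red higher, dots for an adjusted p under 0.05 and grey where the gene was under the count filter; values past an end of the colour scale have its last colour. COLD against RT holds 11 dots, 4 of them Per1 in Lin+ classes, CL against RT holds 0, and cold in the Adrb1 line holds 43, of which 40 are lower.

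The change of Per1 with cold differed between ASC1-like and macrophage-like cells. The class by treatment term, fitted with the experiment as a block, was called for 3 of 10 genes in ASC1-like against macrophage-like cells, where 20.3% of all genes passed, and for 1 of 10 in ASC1-like against VEC-like cells, where 5.52% did. For Per1 the change in ASC1-like cells exceeded that in macrophage-like cells by 1.70 on the log2 scale (SE 0.29, adjusted p = 1.4e-05), and this passed in 11 of 11 alternatives. Nr1d2 differed in the same direction (0.99, SE 0.28, adjusted p = 0.00952), as it was 31.9 and 36.4 CPM at RT and 31.2 and 33.2 in COLD in ASC1-like cells and fell in macrophages. The change of Nr1d1 was lower in ASC1-like cells than in macrophage-like cells (-1.06, SE 0.36, adjusted p = 0.0314) and lower than in VEC-like cells (-1.42, SE 0.27, adjusted p = 0.0157). In VEC-like cells Nr1d1 was 71.8 and 84.8 at RT and 72.3 and 100.9 in COLD. The Nr1d1 terms did not pass without RT replicate 2 or without COLD replicate 1. Those without RT replicate 2 were -0.63 (adjusted p = 0.392) against macrophage-like and -1.14 (adjusted p = 0.105) against VEC-like cells, and without COLD replicate 1 the term against macrophage-like cells was -0.60. The Nr1d2 term did not pass without RT replicate 1 (adjusted p = 0.0784) or COLD replicate 2 (0.173). In DESeq2 neither the Nr1d2 term (0.0859) nor the Nr1d1 term against macrophage-like cells (0.280) passed.

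The make-up of these classes changed with cold. Of ASC1-like cells, 94.9% and 89.0% at RT belonged to cluster 2 (leading genes Smoc2 and Cxcl14), and 92.2% and 94.6% in COLD belonged to cluster 3 (Cxcl9, Ccl2, Timp1 and Tnc). Arntl was lower in COLD within both clusters, at 28.6 and 42.1 CPM against 14.5 and 11.2 in cluster 2 and at 39.8 and 58.5 against 13.2 and 10.8 in cluster 3. Nr1d1, in contrast, was higher in cluster 2 than in cluster 3 in each of the C57 experiments. Within cluster 2 it was 67.3 and 157.0 at RT and 66.6 and 95.8 in COLD, so that the ranges overlapped, and in cluster 3 it was 46.9 and 89.2 at RT and 26.3 and 45.4 in COLD. Of macrophage-like cells, 82.1% and 77.9% at RT were in cluster 5 (Mgl2, Vcam1 and C1qa) and 90.9% and 94.0% in COLD in cluster 6 (Gpnmb, Trem2 and Spp1). In cluster 13 (Cd209f, Lyve1 and Cd163), which both groups held, Per1 was 57.5 and 23.9 at RT and 21.0 and 15.5 in COLD, while Arntl was 27.9 and 17.6 and then 25.7 and 4.84, with overlapping ranges. Of monocyte-like cells, cluster 9 (Cxcl10, Ccl2, Rsad2 and Ifit3) held 20.8% and 24.3% at RT and 64.5% and 63.3% in COLD. It had 5 of 7 monocyte markers and 1 of 9 macrophage markers raised. The paper lists Rsad2 and Ifit3 among the genes of its cold-induced MAC3 macrophages. The monocyte-like values are thus sums over a changed make-up, and no values within its clusters are given.

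Immediate-early genes, which respond to stimulation and to cell dissociation, moved in some of the same classes. In macrophage-like cells 9 of 14 were called lower in COLD, Egr1 (log2 fold change -3.30, adjusted p = 0.000584) and Ier2 (-2.48, adjusted p = 0.00272) among them, and the summed level of the 14 fell from 14730 and 15870 CPM to 6517 and 6635. In monocyte-like cells 3 of 14 were called lower, with sums of 8898 and 11260 at RT and 7826 and 9765 in COLD. In dendritic-like and NK-like cells, where Per1 was also called, 0 of 14 passed in edgeR (3 each at an unadjusted p under 0.05), with sums of 6414 and 7967 at RT and 6955 and 8514 in COLD in dendritic-like cells. In dendritic-like cells 4 of 5 erythroid genes were called higher, their sum going from 2.31 and 3.96 CPM to 946.7 and 3512. Of 10 glucocorticoid-responsive genes, 7 were called in macrophage-like cells, 5 lower (such as Mt2, -3.21, adjusted p = 0.000641) and 2 higher (Sgk1, 1.56, adjusted p = 0.000666, and Cdkn1a). Of 8 adipocyte genes, 6 were called higher in ASC1-like cells, their sum going from 44.7 and 24.3 CPM at RT to 1489 and 1489 in COLD and 672.5 and 1437 in CL, with none at 0 in a group. The part of these changes in those of the clock genes was not tested.

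Further genes of the clock and its outputs were tested beside the 10. Of 21 listed, 19 were tested in COLD against RT, in 163 pairs of gene and class, and 20 pairs passed, 14 higher and 6 lower, in 12 genes. In ASC1-like cells Npas2, which can stand in for CLOCK, was 17.4 and 32.2 CPM at RT, 3.62 and 3.98 in COLD and 8.55 and 7.59 in CL (COLD log2 fold change -2.47, SE 0.23, adjusted p = 0.000999). Hlf, a relative of DBP, was 49.5 and 79.2 at RT and 13.6 and 10.9 in COLD (-2.21, SE 0.28, adjusted p = 0.00247). Noct, a rhythmic gene of lipid metabolism also known as nocturnin, was 3.90 and 6.33 at RT, 38.3 and 32.6 in COLD and 20.1 and 13.2 in CL (2.98, SE 0.22, adjusted p = 0.000440). The RT and COLD values of these 3 genes did not overlap, but the genes were named for a low adjusted p, so this is no separate support. Of all genes in ASC1-like cells, 25.4% lay wholly lower and 16.5% wholly higher in COLD. ASC1-like cells lay mostly in different clusters at RT and in COLD, and no within-cluster values are given for these genes.

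In the sums of macrophage-like cells the E-box repressors Bhlhe41 (DEC2) and Bhlhe40 (DEC1) were higher in COLD. In this class 34.3% of all genes passed. The make-up of macrophage- and monocyte-like cells changed with cold, as given above, and its part in the changes below was not tested. Bhlhe41 was 5.36 and 5.42 CPM at RT, 34.2 and 40.2 in COLD and 11.5 and 11.03 in CL (COLD log2 fold change 2.83, SE 0.25, adjusted p = 0.000165). Bhlhe40 was 21.0 and 11.2 at RT, 49.0 and 43.1 in COLD and 15.6 and 15.1 in CL (1.59, SE 0.26, adjusted p = 0.00219). In monocyte-like cells Wee1, a cell cycle kinase under clock control, was 1.04 and 0.479 at RT and 7.02 and 12.2 in COLD (adjusted p = 0.00591). The RT values rest on 2 and 1 counts, and the ratio of the pooled levels was 11.9 (95% counting interval 3.96 to 58.6). Nampt, which makes NAD, rose from 83.5 and 77.5 to 145.8 and 140.2 (0.79, SE 0.17, adjusted p = 0.0123), and Nfil3, a repressor at D-boxes, fell from 152.9 and 158.9 to 92.9 and 79.0 (-0.89, SE 0.18, adjusted p = 0.0101). In ASC1-like cells Nfil3 was called higher (1.26, SE 0.35, adjusted p = 0.0485), a call that passed in 6 of 12 alternatives and not in DESeq2 (adjusted p = 0.0556) or with any RT or COLD replicate left out (0.118 to 0.221). In monocyte-like cells the calls did not pass without RT replicate 1 or 2 for Wee1 (adjusted p of 0.0523 to 0.0598), without any RT or COLD replicate for Nfil3 (0.0505 to 0.0882), and without RT replicate 1, RT replicate 2 or COLD replicate 1 for Nampt (0.0707 to 0.0987).

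CL infusion changed none of the clock genes past the threshold. In the same edgeR fit 0 of 87 tests passed for CL against RT, where 0.860% of all tests did, with 7 at an unadjusted p under 0.05, and DESeq2 called 1. The nearest was Arntl in ASC1-like cells, whose levels are given above (log2 fold change -1.13, SE 0.22, adjusted p = 0.0501), and with the experiment number as a block it passed (adjusted p = 0.0220). Nr1d1 in macrophage-like cells was 8.49 and 6.51 CPM at RT and 14.2 and 22.3 in CL (1.26, SE 0.35, adjusted p = 0.0614, and 0.0484 with the block). Per1 in macrophage-like cells was 53.6 and 32.9 at RT and 14.8 and 27.2 in CL (-1.07, adjusted p = 0.0899). Both CL values lay below both RT values for Per3 in 9 of 13 classes, 6 of 6 in the Lin- fraction, and for Per1 in 8, against 18.9% of all genes and classes. Dbp lay above RT in this way in 1 class, against 15.2%. Of the further clock genes, Noct (1.91, SE 0.24, adjusted p = 0.0106) and Npas2 (-1.33, SE 0.24, adjusted p = 0.0413) passed in ASC1-like cells, in the directions they had in COLD. The Noct call passed in 12 of 12 alternatives and the Npas2 call in 5 of 12, with an adjusted p of 0.0934 without the shared barcodes and up to 0.175 with a replicate left out. The contrasts share the RT libraries. Of macrophage-like cells in CL, 10.02% and 32.65% were in cluster 5, which held most of them at RT, 43.1% and 24.7% in cluster 6 and 46.85% and 42.6% in cluster 13. Within cluster 5 Nr1d1 was 7.25 and 4.11 CPM at RT and 15.3 and 22.01 in CL, and within cluster 13 it was 13.96 and 15.7 at RT and 18.9 and 25.7 in CL.

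Cold and CL were also compared directly. Nr1d1 in macrophage-like cells was 6.20 and 6.00 CPM in COLD and 14.2 and 22.3 in CL (log2 fold change COLD against CL -1.49, SE 0.30, adjusted p = 0.0253), which was the only call among 87 tests, where 1.05% of all tests passed, and 5.57% in macrophage-like cells. It did not pass with any of the RT or COLD libraries left out (adjusted p of 0.0581 to 0.166). The 2 groups also held these cells in different clusters, since cluster 6 had 90.9% and 94.0% of them in COLD and 43.1% and 24.7% in CL. Within cluster 6 Nr1d1 was 5.97 and 4.66 in COLD and 10.75 and 18.5 in CL, without overlap, whereas within cluster 13 it was 12.8 and 26.8 in COLD and 18.9 and 25.7 in CL, with overlapping ranges. With the experiment number as a block Cry1 in macrophage-like cells passed as well (adjusted p = 0.0317).

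Replicate experiments of the same treatment were set against each other, since the genes of a rhythm can differ between collections. No test of replicate 2 against replicate 1 over the 3 treatments passed in edgeR (0 of 87, with 10 at an unadjusted p under 0.05), and none did in DESeq2 (3 at an unadjusted p under 0.05), where 0.135% of all tests passed. The 3 treatments share 1 replicate term in this fit, so it cannot show differences whose sign changes between treatments. With 10 CPM added, Per1 in the Lin+ classes had a median log2 ratio of replicate 2 to 1 of -0.52 at RT and 0.32 in CL. Nr1d1 in ASC3-like cells was 53.2 and 178.4 CPM in the RT replicates, 82.5 and 116.1 in COLD and 52.1 and 96.5 in CL, with replicate 2 higher in each treatment (log2 difference 0.93, SE 0.18, adjusted p = 0.0558). In ASC1-like cells it was 66.3 and 148.8, 28.6 and 47.2, and 36.7 and 80.1 (0.88, SE 0.17, adjusted p = 0.253).

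Some replicate differences had the same direction across classes. With 10 CPM added to both values, RT replicate 2 exceeded RT replicate 1 in 6 of 6 Lin- classes for Nr1d1 (median log2 ratio 1.03), Dbp (0.52), Cry2 (0.39) and Per3 (0.25) and in 5 of 6 for Clock (0.62) and Cry1 (0.28). Of all genes tested in a Lin- class, 35.9% were higher in RT replicate 2 in every Lin- class, so this pattern was common and not particular to the clock genes. No such share was formed for 5 of 6 classes. Per1 was lower in RT replicate 2 in 7 of 7 Lin+ classes (median -0.52), against 3.74% of all genes. CL replicate 2 exceeded CL replicate 1 in 6 of 6 Lin- classes for Dbp (0.59) and Per1 (0.33) and was lower in 6 of 6 for Cry1 (-0.54), against 2.35% of all genes higher and 14.9% lower in every Lin- class. In COLD the medians over the Lin- classes were 0.29 for Nr1d1, 0.27 for Dbp, 0.05 for Per1 and -0.12 for Cry1, with each gene higher in some classes and lower in others. The classes of a fraction come from the same library, so they are not independent, and the RT replicate 2 Lin- library is the one with the fewest UMIs and the most mitochondrial barcodes. Immediate-early sums in ASC1-like cells were 14060 and 5821 in the RT replicates, 7441 and 7329 in COLD and 8848 and 15440 in CL, and the part of these values in the replicate differences was not tested.

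**Figure D3:**
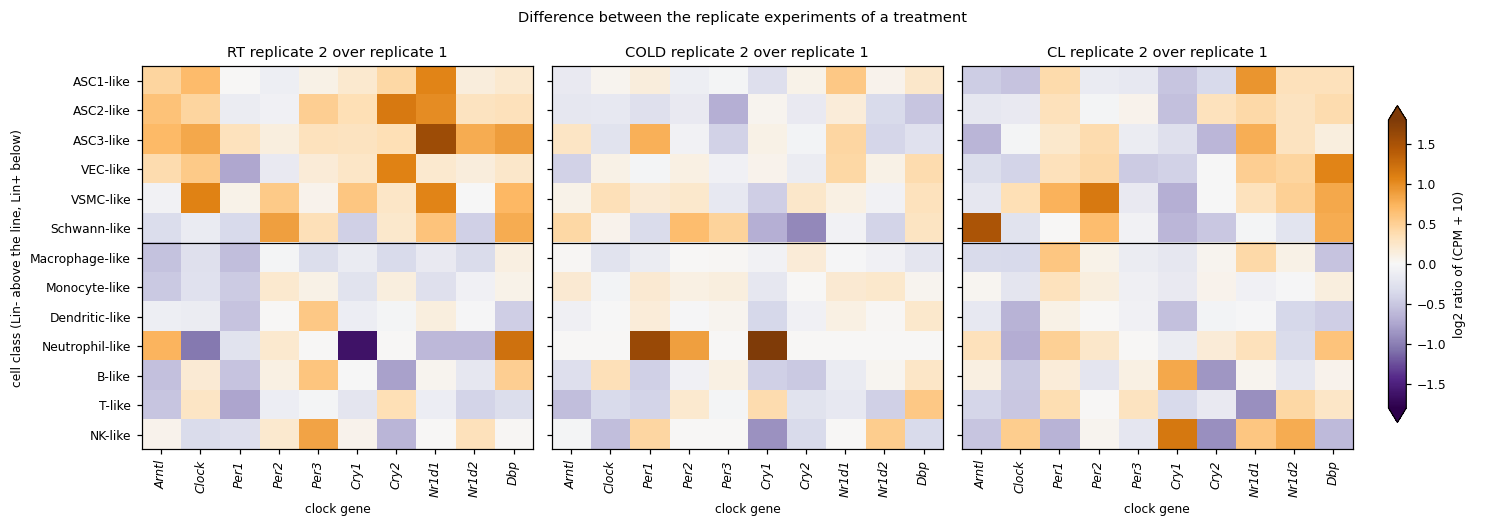
Log2 ratio of replicate 2 to replicate 1 (10 CPM added to both) for each clock gene (columns) and class (rows) in the RT, COLD and CL experiments, with orange where replicate 2 was higher and purple where it was lower; values past an end of the colour scale have its last colour. For Nr1d1 at RT the Lin- classes lie between 0.21 and 1.58, all above 0, and for Cry1 in CL the Lin- classes lie between -0.69 and -0.27, all below 0. Of all genes, 35.9% were likewise higher in every Lin- class at RT, and 14.9% likewise lower in CL.

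A phase index per class and experiment was formed as the mean log2(CPM + 10) of Dbp, Nr1d1, Nr1d2 and Per3, which peak around dusk or before it in peripheral tissues of mice, minus that of Arntl and Cry1, which peak late in the night. It depends on the levels of the genes in a class as well as on phase, so it is read between experiments of the same class, and it carries no test. In ASC1-like cells it was 1.18 and 1.22 at RT, 1.09 and 1.52 in COLD and 1.16 and 2.01 in CL. In VEC-like cells it was 1.54 and 1.42, 1.44 and 1.82, and 1.17 and 1.92. The groups overlapped in both classes, and the median over all 13 classes, which was the macrophage-like value in each experiment, was 0.448 and 0.628 at RT, 0.322 and 0.261 in COLD and 0.490 and 0.715 in CL. The COLD median minus that at RT was -0.246, with a pooled SD between replicates of 0.120. Taken within each class, the index was higher in COLD than at RT in 6 classes and lower in 7, with a median difference of -0.0231. With 1 CPM in place of 10 the difference of the medians was -0.702, and with Dbp set against Arntl alone it was 0.758.

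In the Lin- classes the widest median step between replicates was in CL, where replicate 2 exceeded replicate 1 in 5 of 6 Lin- classes, by a median of 0.740, and by 0.847 in ASC1-like and 0.807 in VSMC-like cells. No treatment difference of the C57 mice in a Lin- class reached that median (COLD minus RT of -0.08 to 0.58, CL minus RT of -0.27 to 0.64). These are differences of means of 2 pools, which vary less than a step between single pools. The median steps between replicates in the Lin- classes were smaller at RT (0.12) and in COLD (0.21). In the Adrb1 line, cold lay below RT in 6 of 6 Lin- classes, with differences of -1.355 to -0.4997, and the KO and WT experiments at the same temperature differed there by -0.187 to 0.6999.

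**Figure D4:**
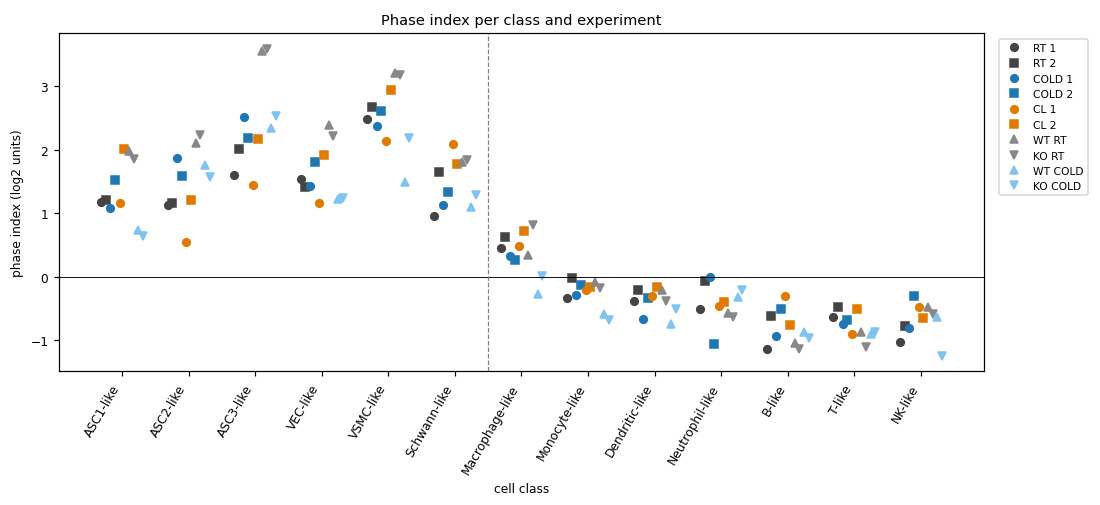
Phase index (mean log2(CPM + 10) of Dbp, Nr1d1, Nr1d2 and Per3 minus that of Arntl and Cry1) by class, with 1 point per experiment and the Lin- classes left of the dashed line. The Lin- classes lie above 0 in all 10 experiments, and in the Adrb1 line the cold experiments of the Lin- classes lie below the RT experiments.

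In the Adrb1 line the targeted gene was checked first. Adrb1, the β1-adrenergic receptor, had 13 counts (6.06 CPM) in ASC1-like cells of the WT at RT and 0 in the KO, for which 3 counts would be 2.04 CPM. In the cold it had 50 counts (4.07 CPM) in the WT and 4 (0.534 CPM) in the KO. In VSMC-like cells Adrb1 was 49.9 and 69.7 CPM in WT and KO at RT and 64.0 and 77.3 in the cold. Pdgfra there was 19.7 and 14.9 CPM in WT and KO at RT, against 722.2 and 468.8 in ASC1-like cells. With 1 experiment per group, genotype was tested over both temperatures in a fit of all 10 experiments, in which 96 of 130 pairs of gene and class passed the count filter. None of the clock genes passed for KO against WT (0 of 96 in edgeR with 3 at an unadjusted p under 0.05, and 0 in DESeq2 with 0 at that p), where 0.00336% of all tests did.

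Per1 differed between the 2 RT experiments of this line. In ASC1-like cells it was 22.9 CPM in the WT (95% Poisson interval 16.9 to 30.2) and 67.4 in the KO (54.8 to 82.0), and the intervals, which cover counting error only, did not overlap in ASC2-like (38.9 and 85.3), ASC3-like (31.6 and 73.7), VEC-like (29.6 and 62.0) or macrophage-like cells (51.6 and 84.3) either. In VSMC-like cells the values were 72.2 and 79.6, and in T-like cells 80.2 and 77.4. In the cold the KO was not higher in ASC1-like cells, at 16.4 against 20.9 CPM in the WT. The difference at RT alone had no test, since each group is 1 pool. The immediate-early sums in ASC1-like cells were 19570 CPM in the WT and 23890 in the KO at RT. In the Lin- library of the KO at RT 41.3% of barcodes had at least 10% mitochondrial UMIs and 57.7% were kept, against 20.6% and 79.2% in the WT, and in the Lin+ libraries these were 15.2% and 80.96%, against 12.2% and 85.6%. The part of these values was not tested. Per1 was the only clock gene in which the KO RT value of ASC1-like cells exceeded the WT value by more than 2-fold.

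Cold in the Adrb1 line was accompanied by lower values of most clock genes. For cold against RT, adjusted for genotype, 43 of 96 tests passed, 40 lower and 3 higher, where 35.0% of all tests passed, 17.5% lower and 17.5% higher, and DESeq2 called 19. By class the share of all genes that passed ran from 5.23% (VSMC-like) to 54.2% (monocyte-like). The RT libraries of this line were made with kit version 3 and the cold libraries with version 2, and they were collected on different days, so temperature, kit and day cannot be told apart. Of 182 tests of immediate-early genes in the same contrast 45 passed, 19 higher and 26 lower, and 34 of 55 of erythroid genes passed, all higher. Their part in the changes of the clock genes was not tested.

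The nuclear receptors changed most often. Nr1d1 was called lower in 8 of 8 classes tested, with a median log2 fold change of -1.25, but in DESeq2 those in ASC2-, ASC3-, VSMC-, Schwann- and monocyte-like cells did not pass (adjusted p of 0.0779 to 0.352), and that in Schwann-like cells passed in 2 of 11 alternatives. In ASC1-like cells it was 128.2 and 113.0 CPM in WT and KO at RT and 25.7 and 25.5 in the cold (-2.16, SE 0.41, adjusted p = 0.00291), and in macrophage-like cells 21.6 and 28.4, then 2.89 and 4.46 (-2.36, SE 0.40, adjusted p = 0.000486). Nr1d2 was called lower in 10 of 12 classes (median -1.30), for example 49.7 and 41.8, then 9.08 and 10.3 in macrophage-like cells (-1.84, SE 0.26, adjusted p = 0.000163). In DESeq2 those in B-, ASC2-, ASC3- and VSMC-like cells did not pass (adjusted p of 0.099 to 0.183), and that in NK-like cells was given no adjusted p. Both cold values lay below both RT values in 12 of 13 classes for Nr1d2 and 9 of 13 for Nr1d1, against 38.7% of all genes and classes. By class that share ran from 21.1% in VEC-like to 56.1% in monocyte-like cells.

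The make-up of macrophage-like cells differed between RT and cold in this line too. Each experiment of this line was aligned as its own cohort before clustering, which evens the cluster shares between experiments. Its shares are therefore not comparable with those of C57 mice, and the part of the alignment in the within-cluster values was not tested. The RT experiments held 196 (WT) and 224 (KO) macrophage-like cells in all. Cluster 6 held 32.1% and 35.3% of them in WT and KO at RT and 71.99% and 63.8% in the cold, while cluster 5 went from 35.2% and 33.0% to 11.75% and 23.7% and cluster 13 from 32.65% and 31.7% to 16.3% and 12.5%. Nr1d1 was lower in the cold within each of them, at 28.15 and 29.7 CPM at RT and 5.40 and 4.63 in the cold in cluster 5, 9.82 and 15.35 and then 2.49 and 1.29 in cluster 6, and 28.8 and 46.2 and then 3.00 and 22.99 in cluster 13. Nr1d2 and Arntl were lower in the same way in all 3 clusters, whereas the ranges of Cry1 at RT and in the cold overlapped or met in each. Of dendritic-like cells, cluster 17 (Siglech and Ccr9) held 46.55% and 54.55% at RT and 7.97% and 12.2% in the cold. Cluster 19 (Xcr1 and Clec9a) held 25.9% and 31.8% of them at RT and 62.4% and 59.0% in the cold. No within-cluster values are given for this class. Of ASC1-like cells, cluster 3 held 61.1% and 60.4% at RT and 72.1% and 74.1% in the cold. Arntl was 20.98 and 27.75 and then 9.87 and 15.5 in cluster 3, and 16.5 and 25.4 and then 19.8 and 17.8 in cluster 2, where the ranges overlapped.

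Clock and Per1 were lower in 12 of 12 classes tested and passed in 5 each, Cry2 was lower in 9 of 9 and passed in 4, and Per3 was lower in 8 of 8 and passed in 4. Per1 in the WT was 22.9 CPM at RT and 20.9 in the cold in ASC1-like cells, and 29.6 and 32.9 in VEC-like cells. In the KO it was 67.4 and 16.4, and 62.0 and 41.6. In ASC2-like cells it was 38.85 and 39.05 in the WT, and 85.3 and 28.2 in the KO. Its fitted fall in these classes thus rests largely on the KO pool at RT. Both cold values of Per1 lay below both RT values in 7 of 7 Lin+ and 4 of 6 Lin- classes. In DESeq2 4 of the 5 Clock calls, 2 of the 5 of Per1, 2 of the 4 of Cry2 and 2 of the 4 of Per3 did not pass, and the Clock call in Schwann-like cells passed in 3 of 11 alternatives. Arntl passed in ASC1-like cells (19.6 and 27.2 CPM at RT, 11.5 and 15.9 in the cold, log2 fold change -0.69, SE 0.22, adjusted p = 0.0290) and in macrophage-like cells (29.1 and 22.4, then 6.05 and 8.93, -1.42, SE 0.37, adjusted p = 0.00680), which are the classes in which it passed in C57 mice. In these classes 39.3% and 51.7% of all genes passed. Arntl was lower in 7 of the 9 classes tested, but in the Lin- fraction it was higher in 2 of 4. Both cold values lay above both RT values in 2 of 6 Lin- classes and below in 2, against 6 of 6 below in C57 mice. In DESeq2 the call in ASC1-like cells did not pass (adjusted p = 0.0863). Dbp passed in ASC1-like cells (-1.06, SE 0.24, adjusted p = 0.00762) and Per2 in monocyte-like cells (-1.85, SE 0.54, adjusted p = 0.0145, and 0.0811 in DESeq2).

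Cry1 was the only clock gene called higher in the cold in this line. In VEC-like cells it was 11.8 and 16.4 CPM at RT and 40.0 and 35.7 in the cold (log2 fold change 1.18, SE 0.31, adjusted p = 0.0382). It was also called in macrophage-like cells (7.51 and 3.73, then 13.8 and 7.59, 1.36, SE 0.42, adjusted p = 0.0165) and monocyte-like cells (9.93 and 19.3, then 20.6 and 20.9, 1.08, SE 0.28, adjusted p = 0.00749). Of all genes, 12.4% passed in VEC-like, 51.7% in macrophage-like and 54.2% in monocyte-like cells. In the KO the monocyte-like CPM were close, at 19.3 and 20.9. The fitted change in this class includes TMM factors and exceeds that in the CPM. Both cold values lay above both RT values in 6 of 6 Lin- classes, against 34.8% of all genes and classes. Within a Lin- class that share ran from 36.5% (ASC2-like) to 43.6% (VEC-like). In the Lin+ classes the cold values of Cry1 lay above in 3 of 7 and below in 3. In DESeq2 the calls in VEC-like (adjusted p = 0.171) and macrophage-like cells (0.0717) did not pass, and in VEC- and macrophage-like cells the direction was that seen in C57 mice.

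Arntl and Dbp were finally set beside all other genes over the 30 combinations of the 6 C57 experiments with ASC1-, ASC2-, ASC3-, VEC- and macrophage-like cells, as deviations of log2 CPM from the mean of the class. Among 8307 genes the pattern of Arntl was most like that of Ctdspl2 (Pearson r = 0.85), Fdx1 (0.85), Pld2 (0.82), Mpg (0.82) and Ids (0.81), and that of Dbp most like that of Arl5a (0.77), Tmod3 (0.74), Bnip2 (0.72), Cryab (0.70) and Mxi1 (0.70). Among the clock genes, r was 0.60 for Arntl with Clock and with Per3, 0.67 for Dbp with Nr1d2 and -0.30 for Arntl with Dbp. The points share libraries and depth, so these values are descriptions.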

How the data were processed

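iBAT stromal-vascular cells of 20 single-cell libraries (10 experiments, each with a Lin- and a Lin+ library) were analysed. The authors aligned the reads with Cell Ranger 3.0.1 to mm10 (per the submitters' processing notes) and removed ambient RNA with SoupX 1.0.1, using Fabp4 and Car3. The deposited values are estimated counts of UMIs per gene and cell, of which 97.2% to 99.6% of the entries above 0 in a library were not whole, so sums were rounded before they were tested. Ambient removal lowers genes that are abundant in free RNA, and its effect on the clock genes was not tested.

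Cells with under 10% mitochondrial UMIs and at most 15000 UMIs were kept, with at most 4000 genes (Lin+) or at least 100 genes (Lin-), which left 66339 of 89637 Lin- and 59935 of 67122 Lin+ barcodes, with library medians of 1204 to 4358 UMIs per cell. They were clustered per fraction with scanpy 1.11.5 (2000 variable genes, 30 principal components, 30 neighbours, Leiden resolution 1) with the clock genes, the gene lists beside them and the markers left out. Genes were scaled within 6 cohorts, which were then aligned by a Harmony-type correction. A cohort was either the C57 experiments of the same replicate number or a single experiment of the Adrb1 line. Clusters, 28 in Lin- and 29 in Lin+, were named from marker genes, so the classes are rebuilt here and may differ from the study's. Doublets were kept. In the alternative, cells whose Scrublet score was in the top 6% of their library were left out.

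CPM are UMIs of a gene per 1000000 UMIs of the class in a library. They carry no TMM factors, so fitted fold changes can differ from ratios of CPM. Counts were summed per class and experiment and tested with edgeR 4.0.16 (quasi-likelihood test, TMM factors, filterByExpr), with Benjamini-Hochberg adjustment across the genes of a class and a threshold of 0.05. The C57 fits held 6 experiments, and the Adrb1 fits held all 10, so that their spread rests on the C57 replicates too. DESeq2 1.42.0, RLE factors, no filter, sums over all cells of a fraction, the replicate number as a block and leaving out each replicate were alternatives. The fits were tested on simulated data. Intervals are 95% exact Poisson intervals. Libraries of the same replicate number were merged by the study as a replicate experiment, so the number was taken to mark pairs. Over 39 correlations between the deviations of same-numbered samples, 20 were above 0.1 (median 0.109, from -0.0869 to 0.412). The study describes the C57 replicates as independent cohorts of mice, each pooled, so p-values measure the spread between pools.

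The members and gene lists were chosen with earlier results of these data known. The text names the 10 clock genes throughout, up to 8 further clock genes with the lowest adjusted p among those called in the C57 contrasts, and the 5 genes most like Arntl and the 5 most like Dbp. Further genes named in the lists beside the results were picked after their values were seen. Promoters were read from RefSeq (GRCm38.p6).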

Additional observations from a re-analysis of the deposited data

Results flagged for a closer look

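For 10 results the response to cold differed between classes by an interaction term of the edgeR fit with Benjamini-Hochberg adjustment. Between ASC1-like and VEC-like cells the log2 fold changes differed by 2.69 for Noct (adjusted p = 0.00225), -2.19 for Hlf (0.0332) and -1.42 for Nr1d1 (0.0157). Between ASC1-like and macrophage-like cells they differed by 1.93 for Noct (adjusted p = 0.000163), -1.21 for Bhlhe40 (0.00103), -1.79 for Bhlhe41 (0.000786), -1.67 for Wee1 (0.0151), 0.99 for Nr1d2 (0.00952), 1.70 for Per1 (1.4e-05) and -1.06 for Nr1d1 (0.0314). A positive value means a higher fold change in ASC1-like cells. The Noct terms did not pass without RT replicate 1 (adjusted p = 0.122 against VEC-like and 0.249 against macrophage-like cells), and that against macrophage-like cells was then 1.05. The Hlf term did not pass without RT replicate 2, COLD replicate 1 or COLD replicate 2 (0.0933 to 0.174) and was -3.43 without RT replicate 1, the Bhlhe41 term without RT replicate 2 (0.0838), and the Wee1 term without RT replicate 1, COLD replicate 1 or COLD replicate 2 (0.0519 to 0.165). In DESeq2 the terms against macrophage-like cells of Bhlhe41 (0.0790), Wee1 (0.0732), Nr1d2 (0.0859) and Nr1d1 (0.280) did not pass.

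For 7 results every cold experiment moved one way against RT in C57 mice and the opposite way in the Adrb1 line, and the difference between the lines was not tested. Of all genes and classes, 25.4% lay wholly higher and 20.3% wholly lower in the cold in C57 mice, and 34.8% and 38.7% in the Adrb1 line. The share with opposite directions was not computed. Arntl in ASC3-like cells had a log2 fold change of -0.94 in C57 mice and 0.93 in the Adrb1 line (difference 1.86). Per1 in ASC1-like cells had 0.42 and -1.03 (difference -1.46). In the Adrb1 line the WT went from 22.9 CPM at RT to 20.9 in the cold and the KO from 67.4 to 16.4, so this value rests largely on 1 pool. Cry1 in ASC2-like cells had -0.83 and 0.57 (1.39), and Cry2 in ASC3-like cells 0.39 and -0.88 (-1.28). Nr1d2 in ASC2-like cells had 0.62 and -0.73 (-1.34). Dbp had 0.80 and -0.74 in ASC3-like cells (-1.53) and 0.95 and -0.62 in VEC-like cells (-1.57). The lines also differ in sex, kit and day of collection.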

How the results depend on the processing

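Calls among the clock genes for COLD against RT numbered 11, and 3 when all cells of a fraction were summed (of 20 tests, Arntl, Per3 and Nr1d2 in Lin+ cells), while leaving out 1 replicate gave 1 to 12. For CL against RT the 0 calls became 1 with DESeq2, 1 with RLE factors, 3 without the count filter, 1 without doublets and 2 with the replicate block, and 0 to 1 without a replicate. For COLD against CL the 1 call became 2 with RLE factors, 5 without the filter, 2 with the replicate block and 0 over all cells, and 0 to 2 without a replicate. For replicate 2 against replicate 1 the 0 calls became 4 without the filter and 0 to 3 without a replicate. Cold in the Adrb1 line gave 43 calls, 19 with DESeq2 and 37 to 46 without a replicate. The difference between classes gave 4 calls, 2 with DESeq2 and 2 to 5 without a replicate. With the replicate block COLD against RT gave 13 calls, and the block changed no call other than those given in the text.

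The phase index as a median over classes was the macrophage-like value in each experiment. The phase index, COLD minus RT, was -0.246 and became -0.702 with 1 CPM added, 0.758 with Dbp set against Arntl alone, and -0.0199 over all cells, and lay between -0.336 and -0.157 without a replicate, while the median of the differences within classes was -0.0231. The phase index, KO minus WT, was 0.384 and became 0.707, -0.107 and 0.0559 in the same order, while the median of the differences within classes was -0.0873 at RT (above 0 in 4 and below in 9 classes) and 0.0216 in the cold. The phase index, CL minus RT, was 0.0648 and lay between -0.0479 and 0.177 without a replicate. The causes were not tested. Of 108 single calls with 1218 alternative values, 1051 passed again, 167 did not, 115 of them without a replicate, and 0 reversed.

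Low counts limit Per2, which passed the filter in 3 classes in the C57 fits and 5 in the Adrb1 fits, and neutrophil- and Schwann-like cells. Each treatment has 2 pools, and the hour of harvest is not given, so its part in any difference was not tested. Groups of the Adrb1 line are 1 pool each.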
